A study of Mus musculus with 8 samples.

Results

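A set of 9 genes that mark monocytes and macrophages was followed through the open-chromatin peak lists of a mouse acute myeloid leukaemia at 0, 6, 12 and 24 hours. The hours are those of Klf4 induction. Maf is a transcription factor of macrophages. Cx3cr1 and Ccr2 encode the chemokine receptors for fractalkine and CCL2, and Adgre1 encodes the surface receptor F4/80. Cd14 is a co-receptor for bacterial lipopolysaccharide, Cd36 a scavenger receptor, Mrc1 the mannose receptor CD206, Cd68 a glycoprotein of the lysosome and Lyz2 the lysozyme of myeloid cells. The genes were chosen by name, and a peak was taken when its summit lay in the mm10 body of one of them or within 50 kb of it. Where peaks shared 1 bp or more, across all 8 libraries, they were joined into 1 region. This gave 48 regions of 32730 in the series, for 9 of 21887 genes.

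The libraries hold GFP-positive leukaemia cells sorted from the bone marrow of leukaemic mice. All groups carry the MLL-AF9 fusion and TetO-Klf4, a Klf4 construct under a tetracycline-responsive promoter, and the labels give the strain as C57BL/7. There were 2 libraries at each of 0h, 6h, 12h and 24h. The labels do not say whether these were separate mice, so the spread between libraries may be technical, nor whether the 0h cells had met doxycycline.

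In ATAC-seq a transposase cuts DNA that is free of nucleosomes, and a peak caller reports where cuts pile up above the local background. Monocytes arise in the marrow from myeloid progenitors under PU.1, C/EBP factors and IRF8, leave it through CCR2, and can become tissue macrophages, in which F4/80, CD206 and MAF family factors are found. KLF4, a zinc-finger factor that binds CACCC-type sequence, is known in mouse as a factor of monocyte development. MLL-AF9 leukaemia cells are held at a progenitor-like stage of this path.

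Peak lists held 14826 to 21903 peaks. The local background that the peaks imply was 2.23 to 2.63 tags per kb in the 6 later libraries, against 2.67 and 1.50 in the first and the second 0h library, which made these a very unequal pair. The Klf4 gene held a peak in 8 of 8 libraries. The peak lists cannot tell whether its reads came from this gene or from the TetO-Klf4 construct. Genes of the MLL-AF9 programme had a peak summit inside or at most 1 kb away in 12 to 15 of 15 cases per library. This was so for 0 to 2 of 12 B lineage genes, 3 to 5 of 12 T and NK genes, 2 of 10 erythroid, 2 to 4 of 10 megakaryocyte, 1 to 5 of 10 stromal and endothelial and 1 to 5 of 12 neutrophil granule genes.

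By the same measure, a summit was present for 7 and 4 of the 9 monocyte and macrophage genes in the 0h libraries, 3 and 4 in those of 6h, 4 and 5 in those of 12h, and 2 and 2 in those of 24h. The 2 genes with one at 24h were Cd36 and Cd68 in both libraries. Beside Maf, peaks of 24h and of the first 0h and first 12h libraries had edges, but not summits, within 1 kb of it. For the 46 other monocyte and macrophage genes counted here, the numbers were 26 and 16 in the 0h libraries, 22 and 22 in those of 6h, 20 and 21 in those of 12h, and 17 and 16 in those of 24h. Over all 21887 genes the share was 55.2% and 47.5% in the 0h libraries, 51.0% and 52.0% in those of 6h, 55.0% and 53.4% in those of 12h, and 48.7% and 48.7% in those of 24h. The lists of 24h were also the shortest, at 15109 and 14826 peaks.

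**Figure D1:**
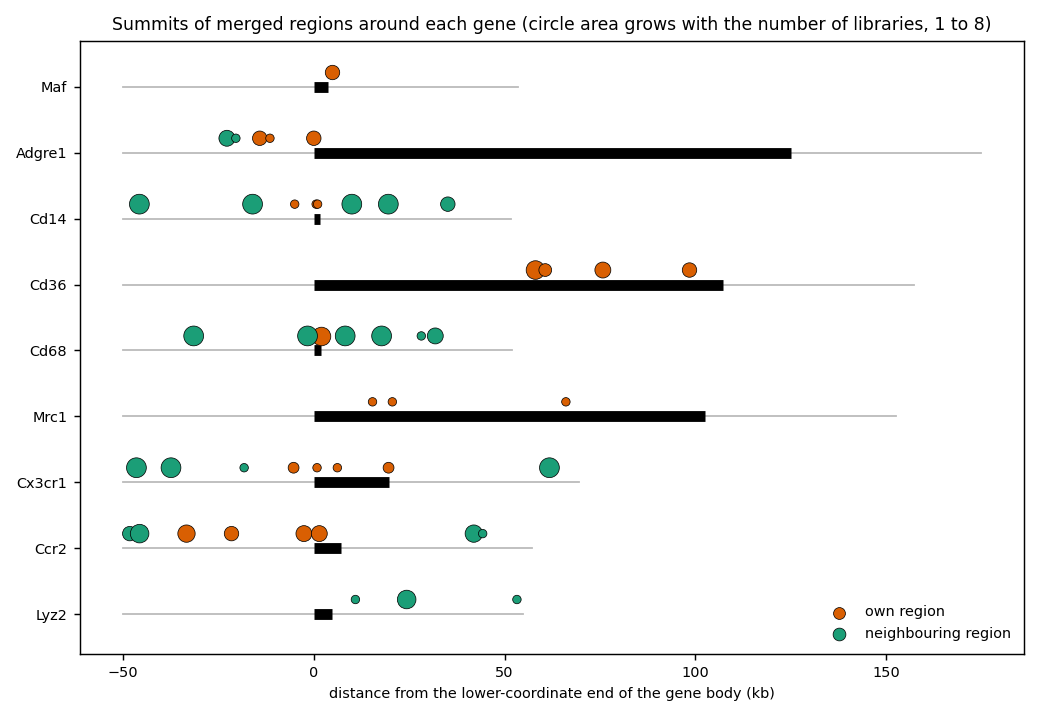
Position of each merged region's summit relative to the lower-coordinate end of its gene, in kb, with the gene body as a black bar and the 50 kb window as a grey line. Circle area grows with the number of libraries that have a peak (1 to 8). Orange marks the 23 regions inside the gene or with its end as the nearest gene end, and green the 25 that lie nearer to another gene. The 11 regions called in all 8 libraries are all green.

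RefSeq start sites on GRCm38.p6, the assembly of mm10, were matched for 6 of the 9 genes (Cd68, Cx3cr1, Lyz2, Mrc1, Ccr2 and Cd36). That of Cd36, at 17835896, lies well inside the gene body, which runs from 17781690 to 17888959. Cd68 and Cx3cr1 had a peak within 1 kb of the start, in 7 and 2 libraries, and the other 4 had none in any library. A peak there in all 8 libraries was found for 0 of the 6, and for 35.9% of 17492 genes with a tabulated start. In at least 1 library it was found for 2 of the 6, and for 51.8% of those genes. The 250 bases before the start are shown for Cd68 and Cx3cr1, and for Lyz2 and Mrc1 as starts at which no peak was called. They read 5′ to 3′ on the strand of the gene, and capitals mark CACCC or its reverse complement GGGTG, a core of KLF sites, and GAGGAA or TTCCTC, a core of PU.1 sites.
Cd68, minus strand, chr11:69666171-69666420: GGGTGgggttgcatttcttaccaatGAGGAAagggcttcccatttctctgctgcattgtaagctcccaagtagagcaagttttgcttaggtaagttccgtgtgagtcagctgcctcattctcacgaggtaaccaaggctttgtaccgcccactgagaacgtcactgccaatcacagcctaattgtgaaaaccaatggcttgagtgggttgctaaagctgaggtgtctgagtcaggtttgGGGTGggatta
Cx3cr1, minus strand, chr9:120068297-120068546: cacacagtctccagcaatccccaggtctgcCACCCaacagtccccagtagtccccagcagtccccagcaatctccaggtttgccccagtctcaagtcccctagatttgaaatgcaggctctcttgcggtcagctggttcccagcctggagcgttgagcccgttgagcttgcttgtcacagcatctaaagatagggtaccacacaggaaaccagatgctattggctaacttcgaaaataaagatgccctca
Lyz2, minus strand, chr10:117282273-117282522: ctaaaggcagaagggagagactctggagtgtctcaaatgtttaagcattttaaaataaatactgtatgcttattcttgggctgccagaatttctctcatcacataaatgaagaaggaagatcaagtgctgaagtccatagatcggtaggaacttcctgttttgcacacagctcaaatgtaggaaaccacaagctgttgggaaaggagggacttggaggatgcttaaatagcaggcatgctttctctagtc
Mrc1, plus strand, chr2:14229164-14229413: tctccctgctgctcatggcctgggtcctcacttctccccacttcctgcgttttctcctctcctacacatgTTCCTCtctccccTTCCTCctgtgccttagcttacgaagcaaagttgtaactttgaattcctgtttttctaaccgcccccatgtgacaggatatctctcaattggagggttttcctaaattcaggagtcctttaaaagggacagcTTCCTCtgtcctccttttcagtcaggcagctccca

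CACCC on either strand was found 2 times before Cd68, 1 time before Cx3cr1 and 0 times before Lyz2 and Mrc1, and 52.0% of 32851 RefSeq windows of this length hold it. GAGGAA on either strand was found 3 times before Mrc1, 1 time before Cd68 and 0 times before Cx3cr1 and Lyz2, and 23.3% of windows hold it. Cd68 also had 2 matches to the AP-1 sequence TGANTCA and 1 to the C/EBP sequence TTGCNNAA, which 6.75% and 9.56% of windows hold. The windows of Ccr2 and Cd36 held none of these 4 motifs. No match overlapped another. The 6 windows held 1 to 4 CpG dinucleotides with a median of 3, against a median of 6 over all windows. Among the 14591 windows with at most 4 CpG, 1.91% had a peak within 1 kb of the start in all 8 libraries, against 25.2% of all 32851 windows.

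The 48 regions were of 2 kinds. For 23 the summit lay in the marker gene, or its end was the nearest gene end, and these are called own regions here. The other 25 lay outside the marker gene and nearer to a neighbour. Of the own regions 0 of 23 had a peak in all 8 libraries, against 11 of 25 neighbouring regions, so 22.9% of the 48 did, against 28.0% of all regions of the series. The median number of libraries with a peak was 3 for own regions and 7 for neighbouring ones.

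Own regions were also weaker where they were called. Their median fold enrichment was 6.35 (range 3.85 to 10.2), against 9.39 (3.76 to 17.9) for neighbouring regions, and their median percentile within the library's own list was 28.6, against 66.2. The median summit pile-up was 10 tags in own regions, against 20. Fold enrichment is the authors' ratio of the pile-up to the local background of each peak, and is used here to describe and rank peaks within a list. In the own set 3 regions lay within 100 bp of a gene end and 0 of these were called in all 8 libraries, against 9 and 7 in the neighbouring set.

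**Figure D2:**
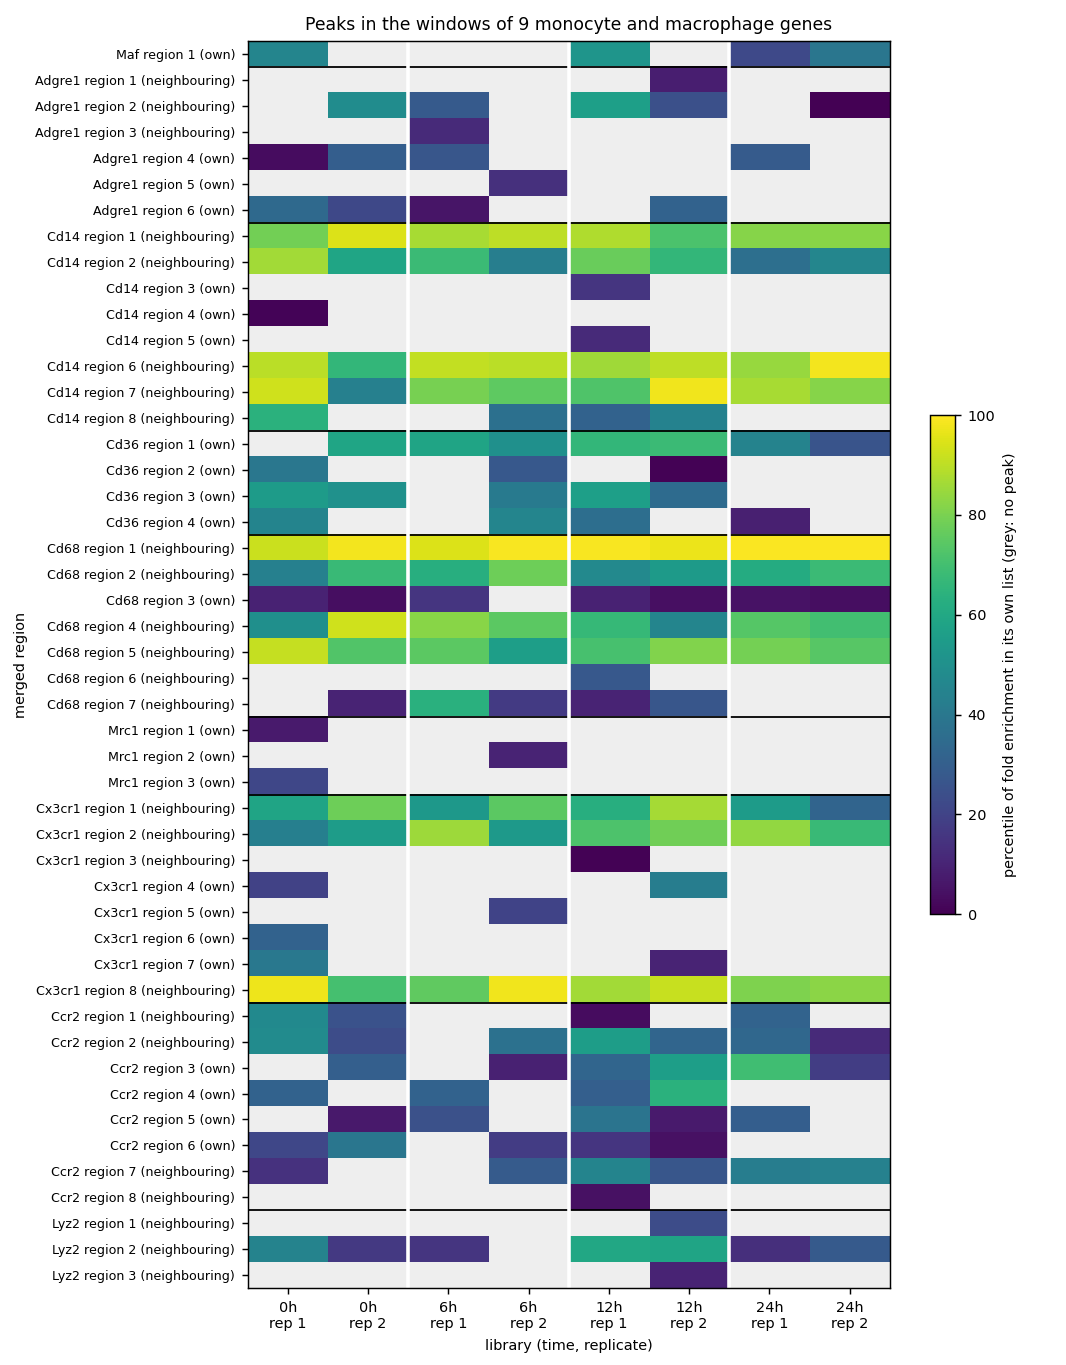
Each row is 1 of the 48 merged regions, numbered by position within its gene's window, and each column a library. Colour gives the percentile of the peak's fold enrichment within its own list, and grey means no peak. The 11 rows filled in all 8 columns are neighbouring regions, and the fullest own rows, 1 each at Cd36 and Cd68, are filled in 7.

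In the 3 windows with a site called in all 8 libraries, the strongest such site belonged to a neighbour. In the Cd14 window it lay 33 bp inside Tmco6 (chromosome 18, 36734896 to 36735509), with folds of 12.3 and 9.02 in the 0h libraries, 13.3 and 13.1 in those of 6h, 12.4 and 12.9 in those of 12h, and 12.1 and 15.8 in those of 24h. In the Cd68 window it lay 202 bp from the start of Fxr2, an RNA-binding protein (chromosome 11, 69632449 to 69633275), with folds of 12.8 and 15.3 in the 0h libraries, 14.2 and 16.6 in those of 6h, 16.2 and 14.7 in those of 12h, and 16.6 and 17.9 in those of 24h. In the Cx3cr1 window it was at the start of Slc25a38, a mitochondrial glycine carrier (chromosome 9, 120110250 to 120110914), with folds of 14.4 and 9.47 in the 0h libraries, 10.8 and 15.5 in those of 6h, 12.5 and 13.2 in those of 12h, and 11.6 and 12.2 in those of 24h. These 3 sites were thus strong in every library, those of 24h included. The ends of Mpdu1, Eif4a1 and Senp3 near Cd68, and of Apbb3 and Ndufa2 near Cd14, were likewise called in all 8. The windows of Maf, Adgre1, Cd36, Mrc1, Ccr2 and Lyz2 held no region called in all 8.

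Maf had 1 region in its window, whose nearer edge lay 572 bp beyond the higher-coordinate end of the gene (chromosome 8, 115707466 to 115708191). Its fold was 7.39 in the first 0h library, 8.41 in the first 12h library, and 6.14 and 7.61 in the 24h libraries, with no peak in the other 4 libraries. A region counted as gained when both libraries of the later time and neither of the earlier one had a peak, and lost in the reverse case. By this rule the Maf site was the 1 region of 48 gained at 24h against 6h, where 0.972% of all regions were gained. The call held under all 7 alternative settings other than leaving out a library. Of these settings, the wider window and the rule that 1 library is enough could not have removed it. Nor could the narrower window, since the summit lay closer to the gene than that.

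The start of Cx3cr1 carried a peak in 1 library of 0h (fold 6.98) and 1 of 12h (fold 5.15), and in none of 6h or 24h (chromosome 9, 120068250 to 120068555). The strongest summit lay 1 bp before the start, and the merged region covered all of the sequence printed above. The same 2 libraries had a peak 5.27 kb beyond the other end of the gene, with folds of 5.52 and 7.61. Inside the gene, 2 further sites were each called in 1 library (folds 5.81 and 6.35). No own region of Cx3cr1 was called at 24h, and none of its 8 regions was gained or lost. Beyond it, 2 sites 46.4 and 37.4 kb away, nearer to the muscle gene Xirp1, were called in all 8 libraries with folds of 7.04 to 12.3.

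Ccr2 had 8 regions, of which 6 were called in 4 to 6 libraries. The site inside the gene (chromosome 9, 124103270 to 124103504) lay 1.20 kb from the tabulated start. Its fold was 5.66 and 6.89 at 0h, 5.66 in the second 6h library, and 5.55 and 4.61 at 12h, with no peak at 24h. It was lost at 24h against 0h.

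Outside the gene, a site 33.3 kb away (chromosome 9, 124068305 to 124069054) was more often called late. It had folds of 6.32 in the second 0h library, 5.05 in the second 6h library, 6.83 and 8.78 at 12h, and 10.2 and 5.91 at 24h. Since 1 library of 0h and 1 of 6h had it, this site was neither gained nor lost, and the highest fold of any own region was its 10.2. Another, 21.5 kb away, had peaks in both 12h libraries (6.61 and 9.53), the first 0h library (6.37) and the first 6h library (6.70), and not at 24h. A site 2.56 kb away was called in 5 libraries, with folds of 4.78 to 7.26.

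Towards Ccr3, a chemokine receptor of eosinophils, a site 48.2 kb from Ccr2 (chromosome 9, 124053631 to 124053953) had folds of 7.56 and 5.95 at 0h, none at 6h, 4.39 in the first 12h library and 6.85 in the first 24h library. It was the 1 region lost at 6h against 0h, where 2.34% of all regions were lost. A site beside it, 45.6 kb away, was called in every library except the first of 6h, with folds of 5.43 to 8.71.

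Adgre1 carried a 659 bp region over its lower-coordinate end (chromosome 17, 57358065 to 57358723), with the strongest summit 27 bp inside the gene. Its fold was 6.58 and 5.77 at 0h, 4.83 in the first 6h library and 6.77 in the second 12h library, with no peak in the other 4 libraries. It was lost at 24h against 0h. The remaining gene body, 124949 bp in all, held no peak in any library.

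The site 14.1 kb outside that end of Adgre1 (chromosome 17, 57344262 to 57344593) had folds of 4.20 and 6.31 at 0h, 6.39 in the first 6h library, none at 12h and 6.65 in the first 24h library. It was the 1 region lost at 12h against 0h, where 1.45% of all regions were lost. One more own site, 11.5 kb away, was called in the second 6h library (fold 5.40). The other 3 regions of the window lay nearer to Vav1, a guanine exchange factor of blood cells, and 1 of them was called in 5 libraries.

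Cd14 had 3 own regions, each called in 1 library. Those inside the gene had a fold of 3.85 in the first 0h library and 5.25 in the first 12h library, and the site 4.98 kb away 5.57 in the first 12h library. The 4 regions of its window that were called in all 8 libraries were those at Tmco6, Ndufa2 and Apbb3 and a site 16.0 kb away. Mrc1 had 3 sites inside its 102610 bp body, each in 1 library, with folds of 4.67 and 5.66 in the first 0h library and 5.08 in the second 6h library. At 12h and 24h no peak was called in the window of Mrc1.

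Cd36 was the only one of the 9 genes with an own region called in all 6 later libraries. The tabulated start of this minus-strand gene lies inside its body, and all 4 sites of Cd36 lay upstream of that start. The region called in all 6 later libraries lay inside the body, 3.90 kb from the tabulated start (chromosome 5, 17839633 to 17839887). Its fold was 8.34 in the second 0h library, 8.89 and 8.07 in those of 6h, 9.79 and 9.99 in those of 12h, and 7.87 and 6.53 in those of 24h. The first 0h library, with the highest background, had no peak there.

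A second site inside Cd36, 21.6 kb from that start (chromosome 5, 17857350 to 17857963), had folds of 8.18 and 7.70 at 0h, 7.26 in the second 6h library, 8.78 and 7.06 at 12h and none at 24h. It was lost at 24h against 0h. A site 6.46 kb from the start was called in 1 library each of 0h, 6h and 12h, with folds of 3.87 to 6.95. The remaining site, 44.3 kb from the start, was called in 1 library of each time, with folds of 5.18 to 7.67.

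Cd68 had the steadiest start. Its region (chromosome 11, 69666062 to 69666419) covered all of the sequence printed above except the first base, and the strongest summit lay 20 bp before the start. The fold was low throughout, at 4.72 and 4.48 at 0h, 5.59 in the first 6h library, 5.02 and 4.56 at 12h, and 4.82 and 4.61 at 24h, with no peak in the second 6h library. These folds stood at percentiles of 3.74 to 15.4 in their lists. The pile-up behind them was 9 to 28 tags, over a local background of 1.23 to 4.78 tags.

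Further along the Cd68 window, a site 33 bp inside Tnfsf12, which encodes the cytokine TWEAK, was the 1 region lost at 24h against 6h, where 3.55% of all regions were lost (chromosome 11, 69695692 to 69696139). Its fold was 4.97 in the second 0h library, 9.39 and 5.63 at 6h, and 5.04 and 6.46 at 12h, with no peak at 24h.

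Lyz2 had no own region in any library, neither at its start nor in its body. Lyz1 beside it is a closely similar copy, and the treatment of reads that fit both is not stated in the labels. The most constant site of its window lay 19.6 kb from it and 9.03 kb from Lyz1, the lysozyme gene of Paneth cells (chromosome 10, 117301600 to 117302066). Only the second 6h library lacked it, with folds elsewhere of 7.34 and 5.47 at 0h, 5.58 in the first 6h library, 9.14 and 8.98 at 12h, and 5.52 and 6.68 at 24h. The other 2 regions of the window were each called in the second 12h library alone, with folds of 6.17 and 5.15, and 1 of them lay inside Lyz1.

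At 24h against 0h, 0 of the 48 regions were gained and 3 were lost, those at the end of Adgre1 and inside Cd36 and Ccr2. Of all regions 1.12% were gained and 4.43% were lost, so the 6.25% lost here stood near the share of the series. Counted by gene, 3 of 9 had a lost region and 0 a gained one, against 14.7% and 5.12% of the 17403 genes with a region in such a window. With 2 libraries against 2, an exact permutation test of 1 value cannot give a p below 0.33, and none was run. With every list reduced to its 14826 strongest peaks, the loss at Cd36 was still called, those at Adgre1 and Ccr2 were not, and 1 region was gained. Where peaks had to cover at least 50% of a region, the loss at Ccr2 was called and those at Adgre1 and Cd36 were not. Without the second 0h library, the one with the lowest background, 12 regions were lost and 2 gained. Without the first 0h library 2 were gained, and without the first 24h library 5 were lost. In bulk chromatin, fewer cells with an open site and a less open site in each cell cannot be told apart.

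The peaks behind the 3 losses were of modest height. Their −log10 q at 0h was 7.20 and 5.37 at Adgre1, 11.0 and 8.51 at Cd36, and 5.54 and 6.92 at Ccr2, and their summit pile-ups were 6 to 15 tags. The lowest pile-up called in either 24h list was 5 tags.

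**Figure D3:**
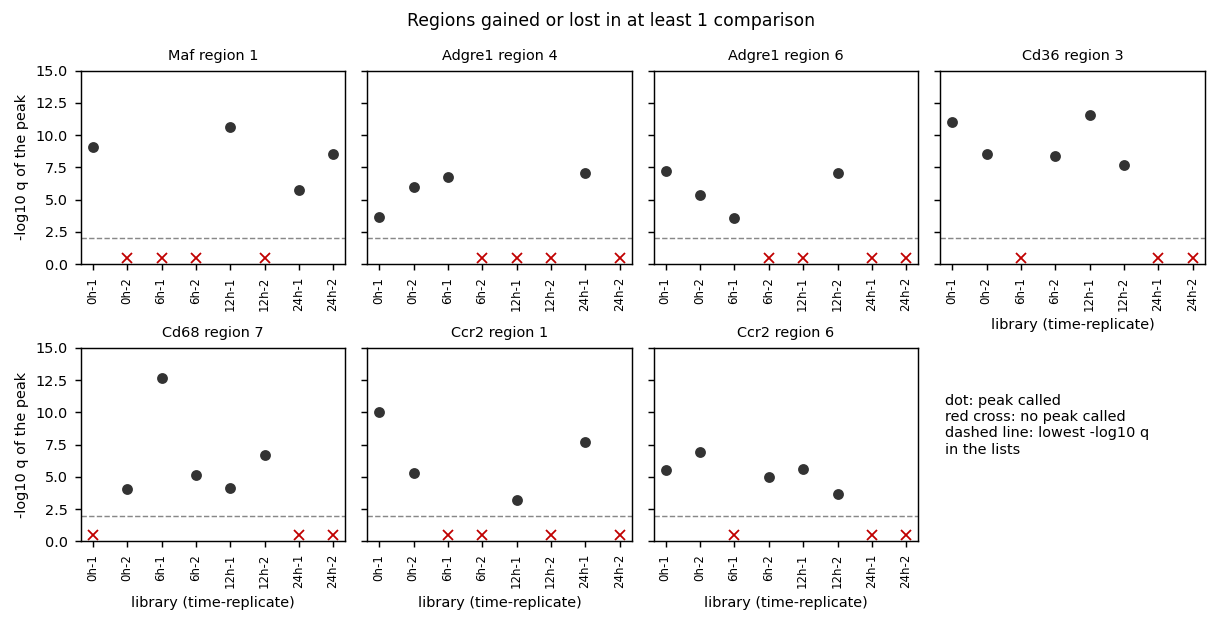
The −log10 q that the peak caller gave in each library for the 7 regions gained or lost in at least 1 comparison. Dots are called peaks, red crosses mark libraries without a peak, and the dashed line is at 2, the lowest value in the lists. The called peaks lie between 3.23 and 12.7, and 5 of the 7 regions are own regions. Regions are numbered by position within the window of their gene.

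At 6h against 0h, 0 regions were gained and 1 was lost, against 1.85% and 2.34% of all regions. By gene, 0 of 9 had a gained and 1 a lost region, against 7.69% and 8.31% of genes. At 12h against 0h, 0 were gained and 1 was lost, against 4.03% and 1.45%, and by gene 0 and 1 of 9, against 16.1% and 5.22%. At 24h against 6h, 1 was gained and 1 lost, against 0.972% and 3.55%, and by gene 1 and 1 of 9, against 4.28% and 13.0%. Each of these calls concerned a single region, and calls from 1 library per time moved the counts. With lists of equal length, the losses near Adgre1 at 12h and near Tnfsf12 at 24h were not called. Without the second 0h library, 8 were lost and 2 gained at 6h, and 5 were lost and 5 gained at 12h. Without the first 0h library, 3 were gained at 12h. Without the first 6h library, 5 were lost and 3 gained at 6h, and 8 were lost and 3 gained at 24h against 6h. Without the second 6h library, 4 were lost and 1 gained at 6h, and 4 were lost and 4 gained at 24h against 6h. Without the first 12h library 3 were gained and 2 lost at 12h, and without the second 5 and 2. Without the second 24h library, 2 were gained at 24h against 6h.

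The 9 windows held 28.5 ± 3.54 peaks at 0h, 24.0 ± 1.41 in the 6h libraries, 31.5 ± 0.707 at 12h and 22.0 ± 1.41 in the 24h libraries (SD, n = 2 each), in the same order as the mean lengths of the lists. Per 1000 peaks of the list this was 1.54 ± 0.168, 1.36 ± 0.0395, 1.52 ± 0.0781 and 1.47 ± 0.0748, so that the means of 12h and 24h differed from that of 0h by less than the SD of 0h. With lists of equal length the means were 23.0, 19.5, 21.0 and 22.0 peaks.

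Own regions varied more between libraries than neighbouring ones. Of the 23 own regions, 15 and 8 had a peak in the 0h libraries, 6 and 9 in those of 6h, 11 and 11 in those of 12h, and 7 and 4 in those of 24h. Of the 25 neighbouring regions, 16 and 16 had a peak in the 0h libraries, 15 and 15 in those of 6h, 21 and 20 in those of 12h, and 15 and 15 in those of 24h. As shares, own regions stood at 30.4% and 17.4% in the 24h libraries and at 65.2% and 34.8% in the 0h libraries, and all regions of the series at 45.5% and 44.8% at 24h and at 66.2% and 46.8% at 0h. Of the 9 own regions called in a single library, 4 were from the first 0h library and 0 from either 24h library.

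**Figure D4:**
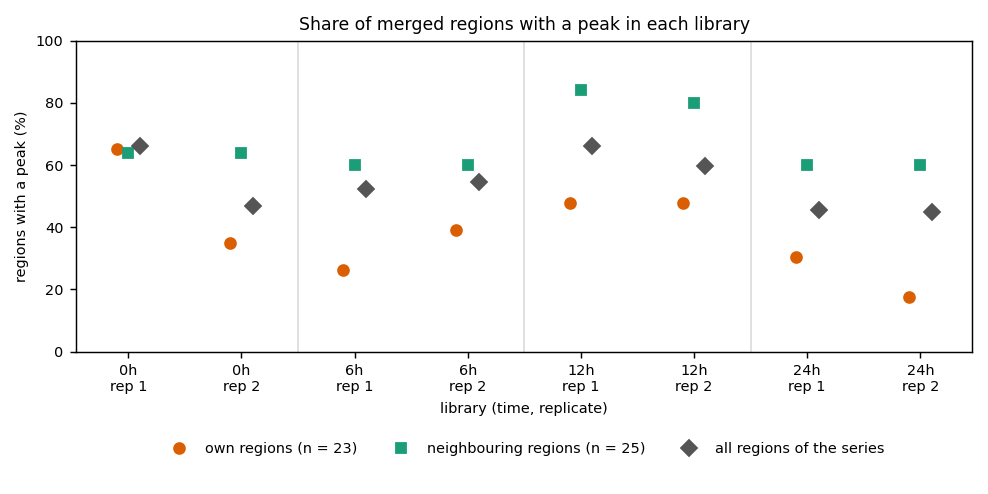
Percentage of merged regions with a peak in each library, for the 23 own regions (orange circles), the 25 neighbouring regions (green squares) and all 32730 regions (grey diamonds). Own regions lie between 17.4% and 65.2%, and below neighbouring regions in every library except the first of 0h.

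Beyond the 9 genes, 46 other monocyte and macrophage genes were counted in the same windows, of which 43 had a region. At 24h against 0h, 5 of the 43 had a gained region and 8 a lost one, against 5.12% and 14.7% of all 17403 genes with a region. At 12h against 0h, 14 had a gained region and 4 a lost one, against 16.1% and 5.22% of genes. At 6h against 0h these were 7 and 7, against 7.69% and 8.31%, and at 24h against 6h 4 and 8, against 4.28% and 13.0%. A region in the windows of several genes counted for each of them, here and in the shares of all genes. The region lost near Fcgr3 at 24h against 0h, for example, was also that of Fcgr4. Own regions called in all 8 libraries numbered 0 of 23 for the 9 genes. They numbered 21 of 109 (19.3%) for the other monocyte and macrophage genes and 11 of 107 (10.3%) for genes of the MLL-AF9 programme. For T and NK genes this was 6 of 22, for erythroid genes 2 of 6 and for neutrophil granule genes 4 of 20. For megakaryocyte genes it was 2 of 12, for B lineage genes 1 of 9 and for stromal and endothelial genes 1 of 19. Over all regions of the series, own or not, 28.0% were called in all 8 libraries. Among the 35 of the 46 genes with a tabulated start, 4 had a peak within 1 kb of it in all 8 libraries and 15 in at least 1, against 35.9% and 51.8% of all genes with a tabulated start. The 4 were Cebpa and Cebpb, transcription factors of the myeloid lineage, Ctsd, a lysosomal protease, and Lamp2, a lysosomal membrane protein.

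Among those with a change at 24h against 0h, Cd86, a costimulatory receptor of antigen-presenting cells, lost 2 sites inside the gene. The site 113 bp from its end (chromosome 16, 36665818 to 36666122) had folds of 5.35 and 4.21 at 0h, 6.68 in the first 6h library and 7.21 in the second 12h library. Aif1, which encodes the macrophage protein IBA1, had a gained region 43.8 kb away near Nfkbil1 and a lost one 33.7 kb away near Lta. The lost site of Clec7a, the β-glucan receptor, lay 27.1 kb away inside Clec1a, and that of Fcgr3, an Fc receptor, lay 17.3 kb away and nearer to Fcgr4.

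From this list, 2 further genes are named after their values were seen. Sirpa, the receptor for CD47, lost a site inside the gene (chromosome 2, 129592048 to 129593034), with folds of 5.53 and 5.48 in the 0h libraries, 4.29 and 4.40 in those of 6h, 4.27 and 3.78 in those of 12h and no peak at 24h. It also had a gained region 44.1 kb away (chromosome 2, 129546757 to 129547534), with no peak at 0h, a fold of 6.47 in the first 6h library, 8.64 in the first 12h library, and 6.68 and 7.19 at 24h. Spi1, which encodes PU.1, gained a site inside the gene (chromosome 2, 91089114 to 91089629), with no peak at 0h, a fold of 6.88 in the second 6h library, 6.80 and 7.48 at 12h, and 6.06 and 4.41 at 24h.

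Markers of other lineages with a peak summit inside or at most 1 kb away were counted at 24h and 0h as well. Stromal and endothelial genes with one numbered 1 and 3 of 10 at 24h, against 4 and 3 at 0h. T and NK genes numbered 3 and 4 of 12 at 24h, against 5 and 5 at 0h. Megakaryocyte genes numbered 2 and 3 of 10, against 4 and 4, so that in both lists the 2 times did not overlap. By the same measure, the share of all 21887 genes was 48.7% and 48.7% at 24h, against 55.2% and 47.5% at 0h. The lists of 24h were the shortest. Erythroid genes numbered 2 and 2 of 10 at both times. B lineage genes numbered 1 and 0 of 12 at 24h, against 2 and 1 at 0h, and neutrophil granule genes 3 and 3 of 12, against 4 and 1. No stromal or endothelial gene of the 6 with a tabulated start had a peak within 1 kb of it in any library, nor had 8 of the 9 such B lineage genes. Their part in the counts of the 9 genes was not tested.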

How the data were processed

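ATAC-seq peak lists of 8 libraries were used, 2 at each of 4 times. Per the submitters' processing notes, reads were handled with BWA, SAMtools and MACS2 on mm10. Their versions and parameters were not given in the sources used here. Each deposited list gives for each peak the authors' whole-number score (not used for a result), a fold enrichment (a ratio), and −log10 p-values and q-values, all within 1 library. No read counts or depths are given. The summit pile-up and local background were solved from each peak's fold and p, with 1 added to each term of the fold. A whole pile-up within a tolerance of 0.001 was found for 99.8% to 99.9% of peaks. The background per kb is the lowest local background over the width of the narrowest peak of a list.

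Peaks on the autosomes and the sex chromosomes were merged into regions, and the gene bodies (of protein-coding genes) and start windows came from RefSeq tables (GRCm38.p6). Gained and lost were defined by presence in both libraries of one time and neither of the other, which gives no p. The calling was tested on simulated peak lists with planted gains and losses, built so that no other region could be called. This checks the rule as coded, and cannot show how often depth or noise gives a wrong call. By rule, values in every library are given for each gene's start region, its strongest constant region and every region gained or lost. Library values are also given for further sites that this rule did not pick, among them sites at Ccr2, Cd36 and Lyz2. Other lists name up to 4 changed genes in alphabetical order. The genes and lists were chosen with earlier results of these data known. The split into own and neighbouring regions and the motifs were chosen after the values were seen. The alternatives kept peaks of −log10 q 5 or more, or used equal list lengths, 50% cover, windows of 150 bp around summits, 1 library being enough, windows of 10 and 100 kb, and leaving out each library. Python 3.11.15, pandas 2.3.3, NumPy 2.4.6, SciPy 1.17.1 and matplotlib 3.10.9 were used. Sequences under the peaks were not analysed here. Some results are not reported here.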

Additional observations from a re-analysis of the deposited data

How the results depend on the processing

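The count of regions called in all 8 libraries, 11, was 6 with 50% cover, 3 within 10 kb and 22 within 100 kb, and 11 to 13 when a library was left out. Lost at 24h against 0h, 3 as deposited, was 1 with equal list lengths, 1 with 50% cover, 13 where 1 library was enough and 3 to 12 with a library left out. Gained at 24h against 0h, 0 as deposited, was 1 with q-values limited to −log10 q of at least 5, 1 with equal lengths, 1 with 50% cover and 0 to 2 with a library left out. Lost at 6h, 1 as deposited, was 2 under each of the q limit, equal lengths and 50% cover, 8 where 1 library was enough, 0 within 10 kb and 1 to 8 with a library left out. Gained at 6h, 0 as deposited, was 1 under the q limit, 1 with 50% cover, 4 where 1 library was enough and 0 to 3 with a library left out. Lost at 12h, 1 as deposited, was 2 with summit windows, 5 where 1 library was enough, 0 within 10 kb and 1 to 5 with a library left out. Gained at 12h, 0 as deposited, was 1 under the q limit, 3 with 50% cover, 8 where 1 library was enough, 1 within 100 kb and 0 to 5 with a library left out. Lost at 24h against 6h, 1 as deposited, was 0 with equal lengths, 11 where 1 library was enough, 0 within 10 kb and 1 to 8 with a library left out. Gained at 24h against 6h, 1 as deposited, was 2 under the q limit, 3 with equal lengths, 3 with 50% cover, 2 where 1 library was enough, 2 within 100 kb and 1 to 4 with a library left out.

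Mean peaks in the windows were 24.0, 20.5, 25.5 and 19.5 at 0h, 6h, 12h and 24h under the q limit, and 23.0, 19.5 and 21.0 at 0h, 6h and 12h with equal lengths. With the regions unchanged, leaving out a library can add to the calls and never remove one. Regions were merged anew each time, which could split one, and the 7 changed regions kept their calls in all 8 such settings. Wider or narrower windows change which regions are counted. The cause of the other changes was not tested. The 7 changed regions kept their calls under 4 to 7 of the 7 settings that leave out no library. No paired analysis was possible because the calls come from no test. Depth is unknown, so a site without a peak is one not called at the depth of that library.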
